A study of Mus musculus with 4 samples.

Results

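The 44 collagen genes were all genes named with Col, a number, a and a number, from Col1a1 to Col28a1, that were listed in each of the 4 count matrices, out of 30406 genes that the matrices shared. They comprised 11 genes of fibrillar chains, 6 of the basement membrane type IV chains, 6 of the microfibrillar type VI chains, 9 of fibril-associated chains, 4 of transmembrane chains, 3 of short-chain network chains, 2 multiplexins, the anchoring fibril chain Col7a1 and 2 others. The gene names alone selected them, with no measured value. The study profiled single cells from the popliteal lymphatic vessels (PLVs), which drain the hind paw, and the adjacent superficial saphenous veins of C57BL/6J mice, asking how the muscle cells of lymphatics (LMCs) compare with the smooth muscle cells of veins (VSMCs) and how chronic arthritis alters the vessels. Each of the 4 libraries pooled vessels of 3 mice. Replicate libraries tdT1 and tdT2 held tdTomato-positive (tdT) cells sorted from male and female Cspg4-Cre;Ai9-tdTomato mice, in which Cre from the Cspg4 gene switches on the red reporter permanently, so that a cell that used the gene only in the past is also labelled. Libraries WT and TNF-Tg were made from males of 9 months, wild type or carrying a human TNF transgene that causes chronic inflammatory-erosive arthritis, and their live cells were sorted by high light scatter without a reporter. One library stood for each of WT and TNF-Tg, so condition, library and pool of mice cannot be told apart.

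Collagens are triple helices of chains, and the chains that a cell makes set which assemblies it can build. Fibrillar types I, III and V form the tensile fibres of the vessel wall and its outer coat, type VI forms beaded microfibrils around cells, and type IV forms the network of the basement membrane, with the chains α1 and α2 in nearly all basement membranes and α3 to α6 in more specialised ones. Fibril-associated types XII, XIV and XVI decorate fibres, and the multiplexins XV and XVIII sit where the basement membrane meets the fibres beneath. In vessel walls, adventitial fibroblasts are a main source of fibrillar collagen and mural cells contribute to the basement membrane.

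The unit is the unique molecular identifier (UMI), which stands for 1 captured RNA molecule read near its 3′ end, so counts were not divided by gene length. The matrices held 454 to 5488 cells and 2357031 to 68773605 UMIs, with median UMIs per cell of 4932 in tdT2 to 12660.0 in WT and 1.16% to 4.11% mitochondrial UMIs, highest in tdT1. The tdT1 library was sorted through another nozzle and read on another sequencer than the other 3, and any pair of libraries shared 0 to 5 cell barcodes. The tdTomato reporter was listed in 3 matrices, with 118 UMIs in 86 cells of tdT2 and 0 in WT and TNF-Tg, and not in that of tdT1. Cells were gated by summed scores of marker genes, none of them a collagen, and UMIs were summed per gate and library and given as counts per 1000000 UMIs of that sum (CPM). The LMC-type gate (Myoc, Pi16, Fndc1 and 7 more genes) held 725 cells in tdT1 and 91 in tdT2, with 1371 in WT and 497 in TNF-Tg, and the VSMC-type gate (Cxcl14, Mgp, Gdf10 and 7 more) held 193, 104, 592 and 453. These marker genes were chosen by the study on the same libraries. The gates are ranges of a score and not separated types. Inside the LMC-type gate, 77, 12, 223 and 100 cells of these libraries lay within 1 log2 unit of its limit. Inside the VSMC-type gate, 56, 22, 105 and 100 cells did. A further 133, 47, 232 and 155 stromal cells lay between the 2 limits.

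Contractile genes were near 0 in both gates, against their muscle names. The contractile genes Acta2, Myh11, Tagln and Cnn1, which define smooth muscle, were at 0 to 0.882, 0 to 0.121, 0 to 0.727 and 0 to 0.045 CPM in LMC-type cells over the 4 libraries and reached no more than 2.96 CPM in VSMC-type cells. Cells low in leukocyte genes with a contractile score of 10 per 10000 UMIs or more went to a separate contractile gate. The low level was thus in part set by the gates. That gate held 15 cells in tdT1 and 3 in tdT2, with 0 in WT and 1 in TNF-Tg. Decorin (Dcn) and the receptor Pdgfra, which mark fibroblasts, were at 10431 to 20072 and 396 to 491 CPM in LMC-type cells and at 13066 to 25564 and 408 to 667 CPM in VSMC-type cells. Both genes belong to the stromal score that the gates required, so their high level was in part set by the gates and is no separate result. The groups are therefore called LMC-type and VSMC-type stromal cells after the genes that gated them, and nothing more is meant by the names. Leukocyte genes, which the gates were set to keep low, were near 0, with Ptprc at up to 3.01 CPM in either gate.

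Collagen genes took 1.40% to 2.52% of all UMIs in LMC-type cells and 1.24% to 2.36% in VSMC-type cells. The lowest share in both gates was that of tdT2 and the highest that of WT. Fibrillar genes held 74.0% to 88.8% of the collagen UMIs in LMC-type cells and 70.4% to 88.7% in VSMC-type cells, and type VI genes held 6.41% to 16.1% and 5.80% to 16%. The gates parted in the remainder. Basement membrane genes held 1.47% to 1.95% of the collagen UMIs in LMC-type cells and 4.10% to 10.5% in VSMC-type cells, whereas fibril-associated genes held 2.75% to 7.64% and 0.54% to 0.835%, and neither pair of ranges overlapped. Of the 44 genes, 25 reached 5 CPM in at least 1 of the 8 stromal sums, 14 had UMIs but stayed under 5 CPM in all of them, and 5 (Col2a1, Col9a1, Col9a2, Col10a1 and Col19a1) had no UMI in any. Of the genes of cartilage collagens, types II, IX and X had no UMI or stayed under 5 CPM, and Col11a1 and Col11a2 stayed at or under 0.485 CPM. The transmembrane chains Col13a1 and Col23a1 reached 8.49 and 8.49 CPM.

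**Figure D1:**
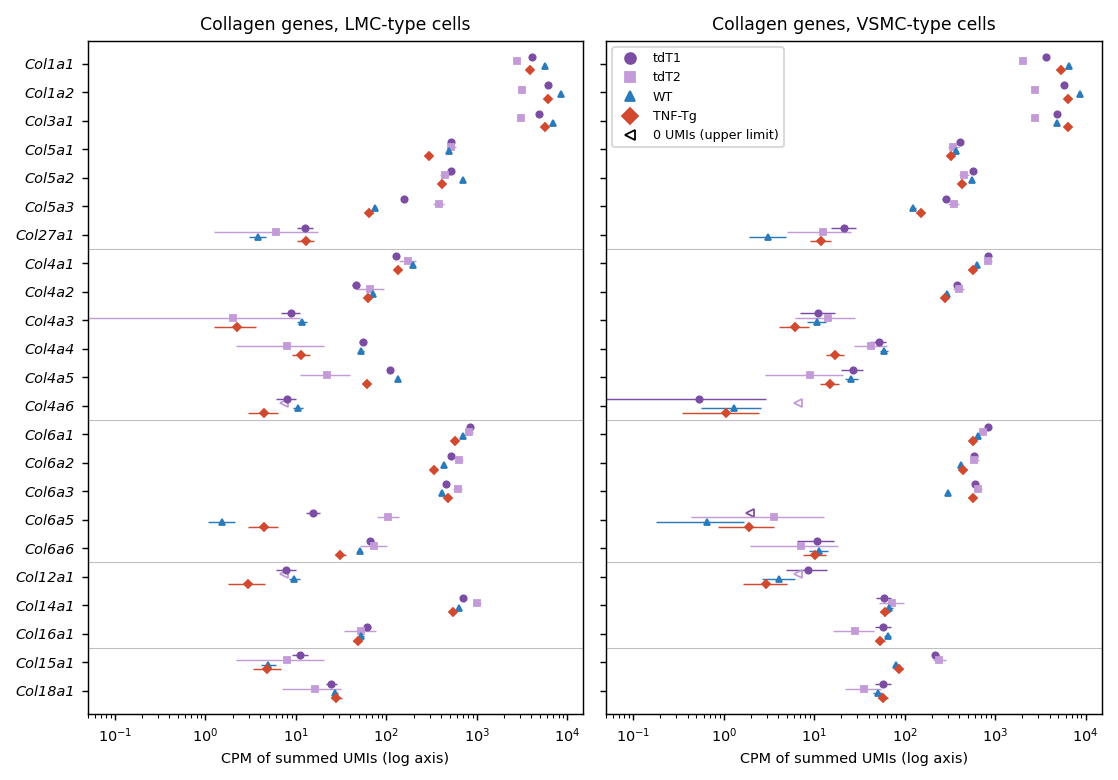
Level of 23 collagen genes in each library, for LMC-type cells (left) and VSMC-type cells (right), as CPM of summed UMIs on a log axis, with exact 95% Poisson intervals for counting error and open triangles at the upper limit where no UMI was found. Lines separate fibrillar, type IV, type VI, fibril-associated and multiplexin genes from top to bottom, and the reader should see Col14a1, Col4a5 and Col6a6 further right on the left and Col4a1, Col4a2 and Col15a1 further right on the right.

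The first comparison asked which collagen genes set LMC-type cells apart from VSMC-type cells, over the 8 sums of 4 libraries with the library as a block. Of the 26 collagen genes with enough counts to test, 4 were higher in LMC-type cells (Col14a1, Col4a6, Col6a6 and Col4a5) and 4 were higher in VSMC-type cells (Col15a1, Col4a2, Col4a1 and Col18a1) at an adjusted p under 0.01 (edgeR quasi-likelihood test with Benjamini-Hochberg adjustment over 11754 genes). Over all genes, 7.62% were called higher in LMC-type and 7.94% in VSMC-type cells. The other 18 did not pass, and the fibrillar chains were among them. Without the library block, Col18a1 (edgeR adjusted p = 0.022) and Col4a5 (edgeR adjusted p = 0.0312) did not pass, and Col4a6 did not pass the low-count filter of that design. Over all genes, 321 of 10991 were called in that design, against 1829 of 11754 with the block. The 2 gates of a library share its mice, its sort and its free RNA. The gating genes were themselves picked by the study as genes that differ between these cells. The test therefore only weighs the size of a difference against its variation over the libraries.

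Basement membrane genes split by chain. Col4a1 and Col4a2 encode the chains of the common network, and Col4a1 stood at 828 CPM in tdT1 and 833 in tdT2, with 630.2 in WT and 575 in TNF-Tg in VSMC-type cells. In LMC-type cells Col4a1 stood at 129 CPM in tdT1 and 174 in tdT2, with 197 in WT and 134 in TNF-Tg, so that every VSMC-type value lay above every LMC-type value. The fitted log2 ratio, LMC-type over VSMC-type, was -2.22 ± 0.16 SE with an edgeR adjusted p = 1.82e-09. Col4a2 ran in parallel at 377, 397, 296 and 281 CPM in VSMC-type cells against 46.3, 66.6, 70.7 and 62.1 CPM in LMC-type cells, in the same order of libraries, with a log2 ratio of -2.49 ± 0.16 SE with an edgeR adjusted p = 2.35e-10. Within a library, the ratio of Col4a1 to Col4a2 UMIs stayed within 2.04 to 2.20 in VSMC-type and 2.16 to 2.78 in LMC-type cells.

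The α5 and α6 genes ran the other way. Col4a5, the chain gene that α3α4α5 and α5α6 networks have in common, was at 110.1 CPM in tdT1 and 22.2 in tdT2, with 134 in WT and 60.4 in TNF-Tg in LMC-type cells. Its VSMC-type values were 26.5, 8.90, 25.8 and 14.8 CPM in the same order, and LMC-type cells were higher within each library, while the low tdT2 value of the LMC-type cells overlapped the VSMC-type range. The log2 ratio was 2.08 ± 0.15 SE with an edgeR adjusted p = 1.93e-09. Col4a6 was sparse, at 7.88, 0, 10.6 and 4.41 CPM in LMC-type cells and 0.531, 0, 1.31 and 1.06 CPM in VSMC-type cells. In the tdT2 sums, which had 0 UMIs, 3 UMIs would stand for 6.05 and 5.34 CPM. Its log2 ratio was 2.75 ± 0.39 SE with an edgeR adjusted p = 1.72e-05, and it lost the call when WT was left out (log2 ratio 2.41, adjusted p = 0.0109). The α3 and α4 genes did not pass the test, at -0.48 ± 0.30 SE with an edgeR adjusted p = 0.273 for Col4a3 and -0.35 ± 0.21 SE with an edgeR adjusted p = 0.28 for Col4a4.

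The 6 type IV genes lie in 3 head-to-head pairs. The whole interval between Col4a4 and Col4a3 is shown. For the longer interval between Col4a6 and Col4a5, only the stretches next to the start of each gene are shown and searched. The fitted class ratios of the partners had the same sign in each pair, but neither Col4a3 nor Col4a4 passed the test. Within a library, the log2 ratios of Col4a3 and Col4a4 had opposite signs in tdT1 (-0.35 and 0.093) and in WT (0.14 and -0.16). By GENCODE vM21 on GRCm38, the build that mm10 names, Col4a1 (minus strand) and Col4a2 (plus strand) are on chromosome 8 and overlap by 22 bases at their starts, so that no sequence lies between them. Col4a4 (minus) and Col4a3 (plus) on chromosome 1 are 71 bases apart, and Col4a6 (minus) and Col4a5 (plus) on chromosome X are 1308 bases apart. The sequences run 5′ to 3′ along the strand of the named gene, from the RefSeq promoter table for GRCm38.p6, limited to annotated bases outside any exon within 250 bases before the start of the gene. Capitals mark the letters CCAAT or GGGCGG on either strand.
Col4a4 to Col4a3, whole interval, chr1:82586850-82586920, minus strand: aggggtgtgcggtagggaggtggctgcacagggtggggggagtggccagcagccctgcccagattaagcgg
Col4a6, upstream, chrX:141474077-141474326, minus strand: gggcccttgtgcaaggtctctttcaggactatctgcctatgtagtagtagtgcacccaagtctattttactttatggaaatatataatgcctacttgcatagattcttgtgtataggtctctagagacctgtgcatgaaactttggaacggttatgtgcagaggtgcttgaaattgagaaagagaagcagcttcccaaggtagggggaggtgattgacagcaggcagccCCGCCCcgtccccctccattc
Col4a5, upstream, chrX:141475169-141475384, plus strand: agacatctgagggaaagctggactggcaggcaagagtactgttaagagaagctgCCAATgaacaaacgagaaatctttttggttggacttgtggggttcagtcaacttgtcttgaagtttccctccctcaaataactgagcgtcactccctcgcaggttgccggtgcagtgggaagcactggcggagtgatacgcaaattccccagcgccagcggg
The search took the TATA letters TATAAA, the CCAAT letters and the GC-box letters GGGCGG on both strands, and the matches did not overlap. None of the 3 sequences held TATAAA, which 4.41%, 12.4% and 9.80% of 32851 promoters hold at the same positions as the Col4a4, Col4a6 and Col4a5 stretches. The Col4a6 stretch held 1 GGGCGG match (32.7% of promoters) and the Col4a5 stretch 1 CCAAT match (30.5% of promoters over the same 216 positions), and the short interval of Col4a4 and Col4a3 held neither (13.3% of promoters hold CCAAT and 20.7% GGGCGG in those 71 positions), with 69.0% G and C. A match of letters is a description of the window and not a bound factor.

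Among genes at the fibre surface, Col14a1, whose product decorates type I fibres, had the highest ratio in favour of LMC-type cells among the 26. It stood at 694 CPM in tdT1 and 1015 in tdT2, with 628 in WT and 545 in TNF-Tg in LMC-type cells and at 58.4, 73.0, 66.7 and 60.8 CPM in VSMC-type cells, ranges that lie far apart, with a log2 ratio of 3.35 ± 0.17 SE with an edgeR adjusted p = 9.22e-12. Col15a1, the multiplexin that anchors basement membranes to the fibres beneath, was its mirror image at 219 CPM in tdT1 and 242 in tdT2, with 80.9 in WT and 86.1 in TNF-Tg in VSMC-type cells and 11.2, 8.07, 4.95 and 4.85 CPM in LMC-type cells. Its log2 ratio was -4.25 ± 0.15 SE with an edgeR adjusted p = 7.74e-14, the largest of the 26 in size. The tdT libraries held over 2 times the WT and TNF-Tg level of Col15a1 in VSMC-type cells, and these libraries differ from the others in sort, genotype and sex of the mice, which cannot be told apart. Col18a1, the other multiplexin and source of the fragment endostatin, differed less, at 57.8, 35.6, 50.1 and 57.4 CPM against 24.6, 16.1, 26.9 and 28.1 CPM in LMC-type cells (log2 ratio -1.11 ± 0.13 SE with an edgeR adjusted p = 2.03e-06). Col16a1 did not pass, with 61.8, 52.5, 52.9 and 48.2 CPM and 57.8, 28.5, 64.8 and 53.8 CPM, nor did Col12a1 (adjusted p = 0.297).

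Of the type VI genes, Col6a6, a chain that can stand in for Col6a3, passed at 66.3, 72.6, 50.7 and 30.9 CPM in LMC-type cells against 10.6, 7.12, 11.3 and 10.1 CPM in VSMC-type cells, with a log2 ratio of 2.12 ± 0.21 SE with an edgeR adjusted p = 1.57e-06. Its close relative Col6a5, on the same strand of chromosome 9 at a gap of 27917 bases, was at 15.4 CPM in tdT1 and 105 in tdT2, with 1.53 in WT and 4.41 in TNF-Tg in LMC-type cells and at 0 to 3.56 CPM in VSMC-type cells. Its level differed by library: tdT2 stood far above the rest, and the ratio of 2.83 ± 0.74 SE with an edgeR adjusted p = 0.0399 did not pass. The core chains Col6a1, Col6a2 and Col6a3, which make up the common microfibril, had log2 ratios of 0.028 ± 0.14 SE, -0.14 ± 0.15 SE and -0.11 ± 0.16 SE and edgeR adjusted p of 0.916, 0.53 and 0.675.

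The fibrillar genes showed no difference past the threshold. Col1a1, Col1a2 and Col3a1 had log2 ratios of -0.054 ± 0.17 SE, -0.0029 ± 0.14 SE and 0.086 ± 0.15 SE, with edgeR adjusted p of 0.864, 0.994 and 0.738. Their ratios within a library ranged over -0.44 to 0.46, -0.094 to 0.20 and -0.18 to 0.54, on both sides of 0. Type V genes, whose chains start fibres, behaved likewise for Col5a1 (0.26 ± 0.16 SE) and Col5a2 (-0.015 ± 0.14 SE). Col5a3, the rarer type V chain, was lower in LMC-type cells in 3 of 4 libraries (log2 ratio -0.75 ± 0.21 SE with an edgeR adjusted p = 0.0252) and passed without tdT2 (log2 ratio -1.05, adjusted p = 7.73e-05).

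**Figure D2:**
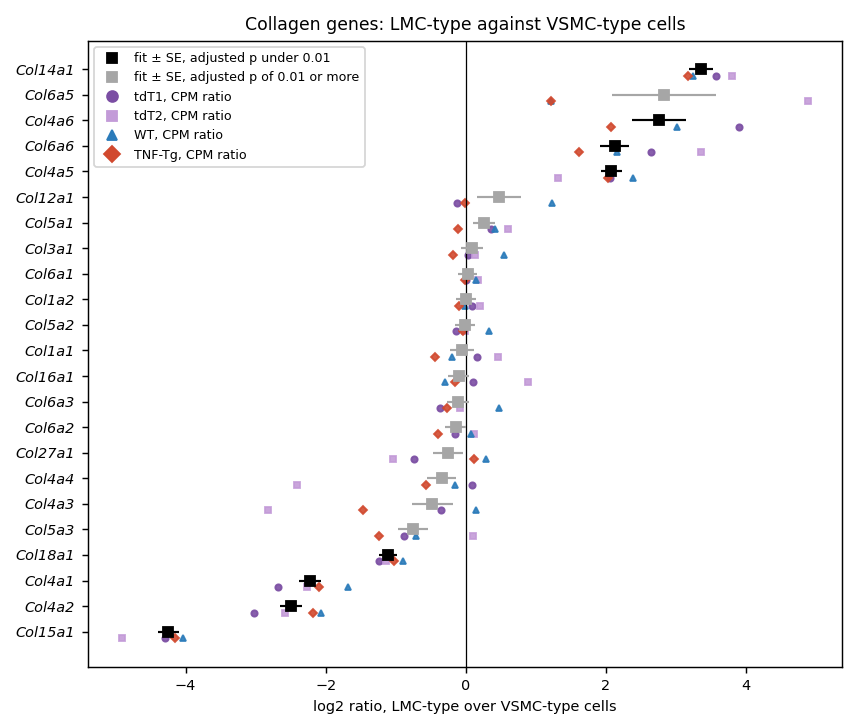
log2 ratio of LMC-type over VSMC-type cells for 23 collagen genes, as the edgeR fit with its standard error (squares, black where the adjusted p was under 0.01) and as the CPM ratio within each library (coloured symbols, left out where a sum was 0). The 8 black squares lie beyond 1 log2 unit on either side. The core type VI genes and Col1a1, Col1a2, Col3a1 and Col5a2 lie near 0, whereas the fibrillar Col5a3 lies at -0.75.

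Shares of cells with a UMI were compared at equal depth. With each cell thinned to 3000 UMIs and shallower cells left out (8 to 219 cells per gate and library), Col14a1 had a UMI in 69.7% to 85.1% of LMC-type and 11.6% to 15.7% of VSMC-type cells, and Col15a1 in 0.613% to 2.37% and 20.1% to 38.6%. Col4a5 had one in 5.97% to 29.2% and 2.41% to 8.27%. Unthinned, these shares were 75.3% to 92.4% and 14.4% to 23.4% for Col14a1, 2.20% to 4.81% and 37.5% to 54.8% for Col15a1, and 8.79% to 65.0% and 3.85% to 16.7% for Col4a5. Median depth per gate and library was 5232 to 16091 UMIs in LMC-type and 5424 to 10528 in VSMC-type cells. Neutrophils of WT and TNF-Tg, which should lack collagen RNA, had medians of 3547 and 3218 UMIs and thinned shares of 0% to 0.837% for Col14a1, 0.775% to 0.837% for Col15a1 and 0% for Col4a5. The Col15a1 share of LMC-type cells thus lay close to the background, and the other shares of both gates lay above it.

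The second comparison set the TNF-Tg library against the WT library within each gate, to ask what collagen expression was in cells from vessels draining arthritic joints. With 1 library per condition no test was possible, so ratios are given with exact 95% intervals that cover counting error only, and beside them the gap between the replicate libraries tdT1 and tdT2. The tdT libraries also differed from each other in nozzle, sequencer and version of the counting software, which WT and TNF-Tg had in common. Their gap therefore mixes these changes with the spread of replicates. The sum of all collagen genes in LMC-type cells was 19347 CPM in tdT1 and 13966 in tdT2, with 25177 in WT and 18735 in TNF-Tg. Its log2 ratio of TNF-Tg over WT was -0.43 (counting interval -0.44 to -0.42), and that of tdT2 over tdT1 was -0.47, so that the tdT libraries, with their differences of protocol, were about as far apart as the conditions. In VSMC-type cells the sum was 19241 CPM in tdT1 and 12361 in tdT2, with 23565 in WT and 21851 in TNF-Tg, with a log2 ratio of -0.11 (counting interval -0.12 to -0.10) against -0.64 for the tdT libraries. Over all 9251 genes tested in VSMC-type cells the median log2 ratio was -0.18, and over 9311 genes in LMC-type cells it was -0.02. The VSMC-type sum was thus lower in TNF-Tg by less than the median gene, and scaling by the trimmed mean of M-values (TMM), which shifts VSMC-type ratios by 0.18, turned it to 0.07.

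Counted by gene, 21 collagen genes reached a mean of 5 CPM over WT and TNF-Tg in LMC-type cells, and 18 of them were lower in TNF-Tg, where 51.9% of all genes were. At 1.5-fold or more, 8 were lower (Col4a3, Col4a4, Col4a5, Col4a6, Col5a1, Col5a2, Col6a6 and Col12a1) and 1 was higher (Col27a1), beside 11.6% of all genes lower and 10.9% higher. The median log2 ratio of the 21 was -0.49. Of these 9 genes, Col4a3, Col4a6, Col12a1 and Col27a1 passed the filter only through the library in which they were higher. With both libraries at 5 CPM or more there were 17 genes, 5 of them lower and 0 higher, and the share of all genes under this filter was not computed. In VSMC-type cells 20 genes reached the mean of 5 CPM, 3 were lower (Col4a3, Col4a4 and Col4a5) and 2 higher (Col6a3 and Col27a1), beside 26.4% of all genes lower and 11.5% higher, and the median of the 20 was -0.15. With both libraries at 5 CPM or more there were 19 genes, 3 of them 1.5-fold lower and 1 higher, again without a share of all genes under this filter. Of the 20, 13 were lower in TNF-Tg, where 60.9% of all genes were. The 3 lower of 20 are a smaller share than the background. At 2-fold, 5 were lower and 1 higher in LMC-type cells (3.22% and 3.0% of all genes), and 1 was lower and 1 higher in VSMC-type cells (9.49% and 3.24%). Among these, Col4a3, Col4a6 and Col12a1 in LMC-type cells and Col27a1 in both gates passed the filter only through the library in which they were higher. In a comparison added after the data were seen, TNF-Tg lay 1.5-fold below each of the other 3 libraries for Col5a1 and Col6a6 in LMC-type cells (4.65% of all genes did) and for Col4a3 and Col4a4 in VSMC-type cells (14.2%), and 1.5-fold above each of them for 0 collagen genes in either gate (5.21% and 5.4% of all genes).

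**Figure D3:**
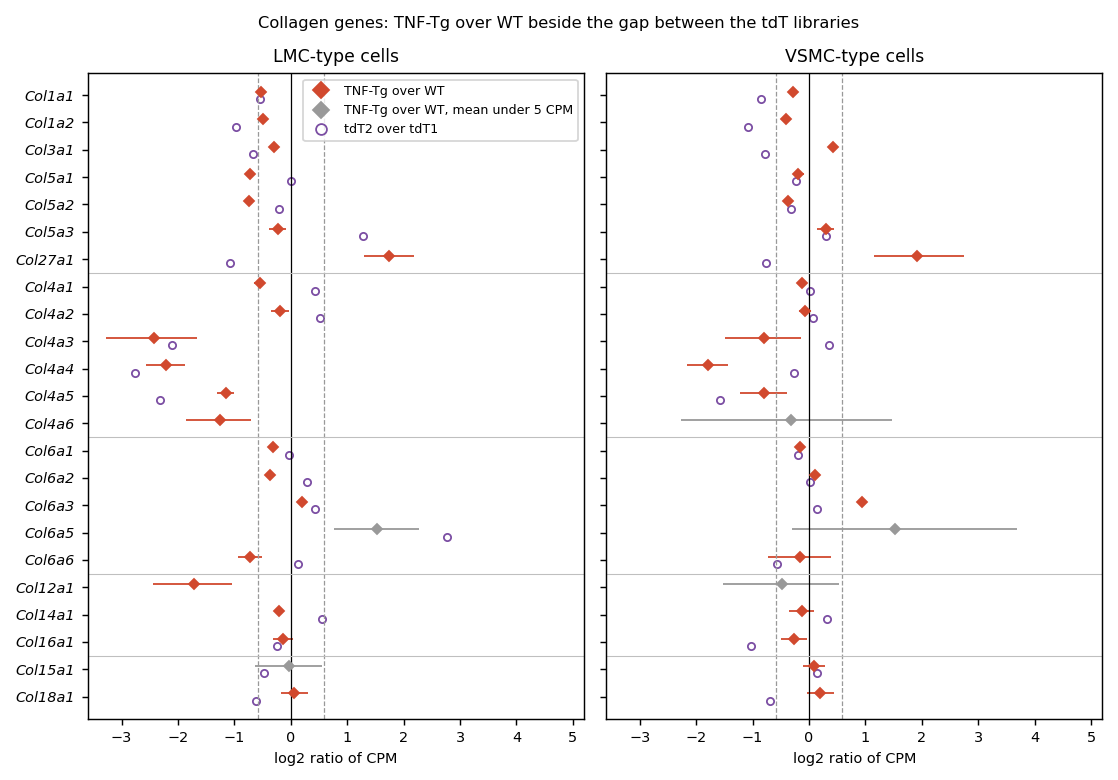
log2 ratio of TNF-Tg over WT for 23 collagen genes in LMC-type (left) and VSMC-type cells (right), as diamonds with exact 95% intervals for counting error (grey where the mean was under 5 CPM), beside the log2 ratio of the replicate libraries tdT2 over tdT1 as open circles. Dashed lines mark 1.5-fold, values with a 0 are left out, and for Col4a4 and Col4a5 in LMC-type cells the circle lies as far to the left as the diamond or further. Circles carry no interval, and that of Col4a4 in LMC-type cells rests on 4 UMIs in tdT2.

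Basement membrane genes had the lowest ratio of the types in LMC-type cells. Their sum was 357 CPM in tdT1 and 272 in tdT2, with 477 in WT and 275 in TNF-Tg, a log2 ratio of -0.80 (counting interval -0.87 to -0.73), with -0.39 between the tdT libraries. Col4a4 was at 54.9 CPM in tdT1 and 8.07 in tdT2, with 53.0 in WT and 11.5 in TNF-Tg in LMC-type cells, a log2 ratio of TNF-Tg over WT of -2.21 (counting interval -2.56 to -1.88). TNF-Tg and tdT2 were low and WT and tdT1 were high, with a log2 ratio of -2.77 between the tdT libraries. Its neighbour Col4a3 had the same shape at 8.73, 2.02, 11.8 and 2.21 CPM and ratios of -2.42 and -2.11. Col4a5 had it too, with ratios of -1.15 (counting interval -1.30 to -1.0) for the conditions and -2.31 for the tdT libraries on the levels given for the class comparison. As point values, the gaps of Col4a4 and Col4a5 between the tdT libraries of LMC-type cells exceeded those between TNF-Tg and WT. The tdT gaps have no counting interval here, and Col4a4 had 4 UMIs in tdT2, so its tdT gap is not shown to be the wider. For Col4a3 the tdT gap was somewhat narrower, on 1 UMI in tdT2. The tdT2 sum rested on 91 cells, and the part of the sort or the library in these gaps was not tested.

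In VSMC-type cells Col4a4 was low in TNF-Tg but not in tdT2. It stood at 51.5 CPM in tdT1 and 42.7 in tdT2, with 59.2 in WT and 17.1 in TNF-Tg, a log2 ratio of -1.79 (counting interval -2.16 to -1.44), and the tdT libraries differed by -0.27. The TNF-Tg value lay below all 3 others, which overlapped within their counting intervals. Col4a3 was at 11.1, 14.2, 10.7 and 6.12 CPM (log2 ratio -0.80, counting interval -1.49 to -0.15), again with TNF-Tg lowest. Col4a5 was at the levels given above, with a ratio of -0.80 (counting interval -1.23 to -0.39), and tdT2 was lower still. The common chains had log2 ratios of -0.55 and -0.19 for Col4a1 and Col4a2 in LMC-type and -0.13 and -0.071 in VSMC-type cells. Col4a1 depended on how cells were chosen: clusters in place of gates gave -0.71 in LMC-type and -0.74 in VSMC-type cells, both past 1.5-fold, and the stricter gate gave -0.67 in LMC-type cells. The VSMC-type sum of basement membrane genes had a log2 ratio of -0.19 (counting interval -0.25 to -0.14), and -0.77 with clusters in place of gates.

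Fibrillar genes in LMC-type cells summed to 16286 CPM in tdT1 and 10342 in tdT2, with 22359.6 in WT and 16409 in TNF-Tg, a log2 ratio of -0.45 (counting interval -0.46 to -0.44) against -0.66 between the tdT libraries. Col1a1, which encodes the main chain of type I collagen, was at 4089.6 CPM in tdT1 and 2795 in tdT2, with 5649 in WT and 3917 in TNF-Tg, a ratio of -0.53 (counting interval -0.55 to -0.51). Its partner chain Col1a2 was at 6126, 3129.8, 8467 and 6043 CPM (log2 ratio -0.49, counting interval -0.50 to -0.47). WT was the highest library for both, and TNF-Tg lay within the range of the tdT libraries or just below tdT1. The 2 type I genes kept a UMI ratio, Col1a2 over Col1a1, of 1.12 to 1.54 in LMC-type and 1.22 to 1.57 in VSMC-type cells. Col3a1, the fibrillar chain of extensible tissue, was at 4867 CPM in tdT1 and 3063 in tdT2, with 6973 in WT and 5656 in TNF-Tg in LMC-type cells (log2 ratio -0.30, counting interval -0.32 to -0.29) and at 4774 CPM in tdT1 and 2787 in tdT2, with 4782 in WT and 6419.8 in TNF-Tg in VSMC-type cells (log2 ratio 0.42, counting interval 0.40 to 0.45). The direction thus differed between the gates, a difference that was not tested. In VSMC-type cells the fibrillar sum was 15501 CPM in tdT1 and 8698 in tdT2, with 20899 in WT and 19089 in TNF-Tg, a log2 ratio of -0.13 (counting interval -0.14 to -0.12), smaller than the gap of -0.83 between the tdT libraries. TMM scaling turned it to 0.049, and clusters in place of gates gave -0.25.

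The type V genes gave the most separate TNF-Tg value among fibrillar genes. Col5a1 in LMC-type cells was at 520.3 CPM in tdT1 and 525 in tdT2, with 495 in WT and 299.6 in TNF-Tg, so that 3 libraries lay close together and TNF-Tg lay below them, at a ratio of -0.72 (counting interval -0.79 to -0.66) against 0.012 between the tdT libraries. Col5a2 was at 515, 446, 696 and 416 CPM in the same order (log2 ratio -0.74, counting interval -0.80 to -0.69), where TNF-Tg was lowest but near tdT2. In VSMC-type cells their ratios were -0.19 (counting interval -0.29 to -0.10) and -0.37 (counting interval -0.45 to -0.29). Col5a3 parted the libraries another way: LMC-type cells held 155, 377, 75.1 and 64.0 CPM and VSMC-type cells 285, 351, 123 and 151 CPM, with both tdT libraries above WT and TNF-Tg. Col27a1, a fibrillar chain best known from cartilage, was at 12.7, 6.05, 3.82 and 12.8 CPM in LMC-type and 21.2, 12.5, 3.12 and 11.8 CPM in VSMC-type cells. Its ratios of 1.74 (counting interval 1.30 to 2.19) and 1.92 (counting interval 1.15 to 2.75) went with a low WT value: TNF-Tg was level with tdT1 in LMC-type cells and lay below both tdT libraries in VSMC-type cells.

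Type VI genes summed to 1896 CPM in tdT1 and 2250.0 in tdT2, with 1613 in WT and 1417 in TNF-Tg in LMC-type cells, a log2 ratio of -0.19 (counting interval -0.22 to -0.15). In VSMC-type cells they summed to 2019.9 CPM in tdT1 and 1982 in tdT2, with 1367 in WT and 1602 in TNF-Tg, a ratio of 0.23 (counting interval 0.18 to 0.27), which turned to -0.08 when clusters replaced the gates. Of the core chains, Col6a3, the largest, had the highest ratio in VSMC-type cells, at 593 CPM in tdT1 and 653 in tdT2, with 299 in WT and 575 in TNF-Tg (log2 ratio 0.94, counting interval 0.86 to 1.03). Here too WT stood apart: the other 3 libraries lay between 575 and 653 CPM. In LMC-type cells Col6a3 was at 459, 617, 416 and 478 CPM (log2 ratio 0.20, counting interval 0.14 to 0.26). The first and second chains were lower in TNF-Tg in LMC-type cells, with ratios of -0.32 for Col6a1 and -0.37 for Col6a2, and at -0.17 and 0.10 in VSMC-type cells. Col6a3 over Col6a1 in UMIs was accordingly 0.467 in WT and 1.01 in TNF-Tg VSMC-type cells, with 0.711 and 0.897 in tdT1 and tdT2. Col6a6 was lower in TNF-Tg LMC-type cells than in any other library, at a ratio of -0.72 (counting interval -0.93 to -0.50), and at -0.16 (counting interval -0.73 to 0.39) in VSMC-type cells. Averaged over cells in place of summed UMIs, the LMC-type ratios of Col5a1 and Col6a6 were -0.53 and -0.41, under 1.5-fold, and the VSMC-type ratio of Col4a3 was -0.31.

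Of the 8 genes that parted the gates, Col4a5, Col4a6 and Col6a6 were 1.5-fold lower in TNF-Tg LMC-type cells, with a log2 ratio of -1.26 (counting interval -1.86 to -0.71) for Col4a6. The others were under 1.5-fold. Col14a1 had a TNF-Tg over WT ratio of -0.20 (counting interval -0.26 to -0.15) in LMC-type cells and -0.13 (counting interval -0.36 to 0.087) in VSMC-type cells, and Col15a1 one of 0.091 (counting interval -0.10 to 0.28) in VSMC-type cells. Col18a1 was at 0.061 (counting interval -0.18 to 0.30) and 0.20 (counting interval -0.045 to 0.44), and Col16a1 at -0.13 (counting interval -0.31 to 0.046) and -0.27 (counting interval -0.50 to -0.036). Col12a1, whose product stiffens fibre networks, was at 7.76, 0, 9.62 and 2.94 CPM in LMC-type cells (log2 ratio -1.71, counting interval -2.45 to -1.05), with no UMI in tdT2, where 3 UMIs would stand for 6.05 CPM.

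Collagen needs a set of enzymes and chaperones, of which 42 were listed: prolyl and lysyl hydroxylases and their partners, folding and export factors, proteases that trim the ends, crosslinking lysyl oxidases, and receptors. In the class comparison 36 were tested, and 9 were higher in LMC-type cells (Pcolce2, Itga2, Bmp1, Loxl4, Ddr2, Itga11, Loxl1, Loxl2 and Adamts14) and 1 in VSMC-type cells (Plod1), beside the 7.62% and 7.94% of all genes. The lowest p belonged to Itga11, an integrin subunit that binds fibrillar collagen (log2 ratio 2.37 ± 0.16 SE with an edgeR adjusted p = 7.17e-10), and to Loxl1, a crosslinking oxidase (1.87 ± 0.14 SE with an edgeR adjusted p = 3.13e-09). Itga2, another collagen-binding integrin subunit (2.27 ± 0.20 SE with an edgeR adjusted p = 3.47e-08), Bmp1, the protease that removes the carboxyl ends of fibrillar chains (1.24 ± 0.13 SE with an edgeR adjusted p = 4.94e-07), and Loxl2 (0.97 ± 0.15 SE with an edgeR adjusted p = 4.63e-05) came next. The other 4 higher in LMC-type cells were Pcolce2, Loxl4, Ddr2 and Adamts14. Without the library block, 3 of the 9 passed and Plod1 did not, in a design that called 321 of 10991 genes against 1829 of 11754 with the block.

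In TNF-Tg over WT, 3 of 33 assembly genes in LMC-type cells were 1.5-fold higher (P4hb, Fkbp10 and Loxl4) and 3 lower (Pcolce2, Lox and Loxl2). In VSMC-type cells 4 of 32 were higher (P3h1, P3h4, Fkbp10 and Loxl4) and 7 lower (P3h3, Mia3, Mia2, Pcolce2, Adamts2, Lox and Itga11). Over all genes, 10.9% were higher and 11.6% lower in LMC-type cells, and 11.5% were higher and 26.4% lower in VSMC-type cells. The counts of assembly genes lay near these shares. TMM scaling made the VSMC-type counts 8 higher and 4 lower, and the share of all genes under TMM was not computed. Lox, the oxidase that starts crosslinks, was at 112 CPM in tdT1 and 16.1 in tdT2, with 162 in WT and 55.4 in TNF-Tg in LMC-type cells (log2 ratio -1.54, counting interval -1.70 to -1.39) and at 192, 55.2, 203 and 52.6 CPM in VSMC-type cells (log2 ratio -1.95, counting interval -2.15 to -1.75). It was low in both TNF-Tg and tdT2 in both gates, with ratios of -2.80 and -1.80 between the tdT libraries. Pcolce2, which speeds up end removal by Bmp1, was at 1848, 1233, 1511 and 940.0 CPM and 920.0, 689, 903 and 442 CPM, lowest in TNF-Tg in both gates, with ratios of -0.68 and -1.03. The chaperone Fkbp10 was highest in TNF-Tg in both gates, at 54.4, 60.5, 42.6 and 69.7 CPM and 62.1, 49.8, 47.2 and 90.8 CPM. Loxl4 was at 9.82, 0, 10.3 and 19.1 CPM and 2.65, 0, 6.41 and 10.1 CPM, with TNF-Tg highest.

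Collagen was higher still in a group of cells that cut across the gates. Clustering on 1980 genes that held no collagen gave a stromal cluster of 81 tdT1, 37 tdT2, 95 WT and 97 TNF-Tg cells, left without a name, whose collagen sum was 29386 to 41022 CPM, above both gates in every library. Of these cells, 18, 1, 16 and 10 were also in the LMC-type gate and 27, 14, 40 and 47 in the VSMC-type gate, in the same order, so the groups overlap. Its Col4a1 was at 1873, 2573, 1445 and 1541 CPM, its Col6a3 at 1775, 1979.7, 851 and 1742 CPM, its Col5a3 at 944, 1379, 459.9 and 582 CPM and its Col3a1 at 9808, 8418, 10749.8 and 12815 CPM in tdT1, tdT2, WT and TNF-Tg. As in VSMC-type cells, Col15a1 (322, 495, 165 and 182 CPM) was high and Col14a1 (91.0, 45.3, 171 and 143 CPM) low. The low WT value of Col6a3 and the higher tdT values of Col5a3 were also present here, in part in the same cells as in the VSMC-type gate. This cluster held 27 of 193, 14 of 104, 40 of 592 and 47 of 453 cells of that gate, unequal shares. Their part in the VSMC-type levels was not tested. Col5a3, Col4a1, Col4a2, Col15a1 and Col6a3 were among the top genes of this cluster against all other cells, and it was taken up after the clusters were seen. Their high level in it is therefore no separate result. As a cluster against the rest is no test, these values are a description. The 133, 47, 232 and 155 stromal cells that met neither gate had a collagen sum of 21959 to 24794 CPM.

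Leukocytes held collagen UMIs at a small fraction of the stromal level. The summed collagen genes stood at 87.2 and 50.9 CPM in Lyve1 macrophages of WT and TNF-Tg, at 57.0 and 39.2 in Ccr2 macrophages and at 159 and 82.7 in neutrophils. Gene by gene, for those at 200 CPM or more in stroma, Lyve1 macrophages of WT held 0.247% to 0.45% and Ccr2 macrophages 0.155% to 0.335% of the stromal level, a like small share for each gene. Mast cells of WT were an exception at 1406 CPM, on a median of 1019 UMIs per cell. Unlike the macrophage and neutrophil gates, the mast cell gate also took cells with a low leukocyte score, so stromal cells could enter it. Their part in this level was not tested. No collagen gene had its highest level in a leukocyte class at 20 CPM with 10 UMIs or more.

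A few collagen genes were highest outside the stroma. The 15 tdT1 cells that passed the contractile gate had a collagen sum of 2582 CPM, far under the stromal gates, whereas the 1 such TNF-Tg cell was at 26905 CPM. The collagen genes with the most UMIs in these tdT1 cells were Col4a2 at 451 CPM (50 UMIs) and Col4a1 at 361 CPM (40 UMIs). VSMC-type cells of tdT1 held them at 377 and 828 CPM. In the same 15 cells Col16a1 was at 244 CPM (27 UMIs), Col11a1 at 45.1 CPM (5 UMIs), Col4a6 at 144 CPM (16 UMIs) and Col12a1 at 99.3 CPM (11 UMIs). Col17a1, the transmembrane collagen of hemidesmosomes, was at 162 CPM (18 UMIs) there and at 159.9 CPM (126 UMIs) in the 241 ungated tdT1 cells, against at most 0.531 CPM in the stromal gates. Col7a1, its partner in epithelial anchorage, was at 81.2 CPM (9 UMIs) and the fibril-associated Col9a2 and Col9a3 at 63.2 CPM (7 UMIs) and 63.2 CPM (7 UMIs) in the contractile gate. No epithelial marker list was scored. A cluster of 236 tdT1, 22 tdT2, 338 WT and 91 TNF-Tg cells had the keratin genes Krt18 and Krt19 among its top genes. The immunoglobulin genes Igkc, Iglc2, Ighg2b and Jchain ranked above them there, so this cluster was not of one kind by these genes. Whether the tdT1 cells of the contractile gate were muscle, pericyte or epithelial cells was not tested. Col8a1, a short-chain collagen, was at 66.0 CPM (52 UMIs) in ungated tdT1 cells and at 0 in ungated WT cells. Endothelial cells were few, with 35 in tdT1 and 2 to 7 in the others. The 6 of TNF-Tg held Col12a1 at 269 CPM (16 UMIs) and Col23a1 at 84.1 CPM (5 UMIs), and the 2 of WT held Col4a1 at 1539 CPM (43 UMIs) and Col18a1 at 501 CPM (14 UMIs). The 3 erythroid-gated cells of tdT1 had a collagen sum of 7712 CPM, too few cells to read.

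**Figure D4:**
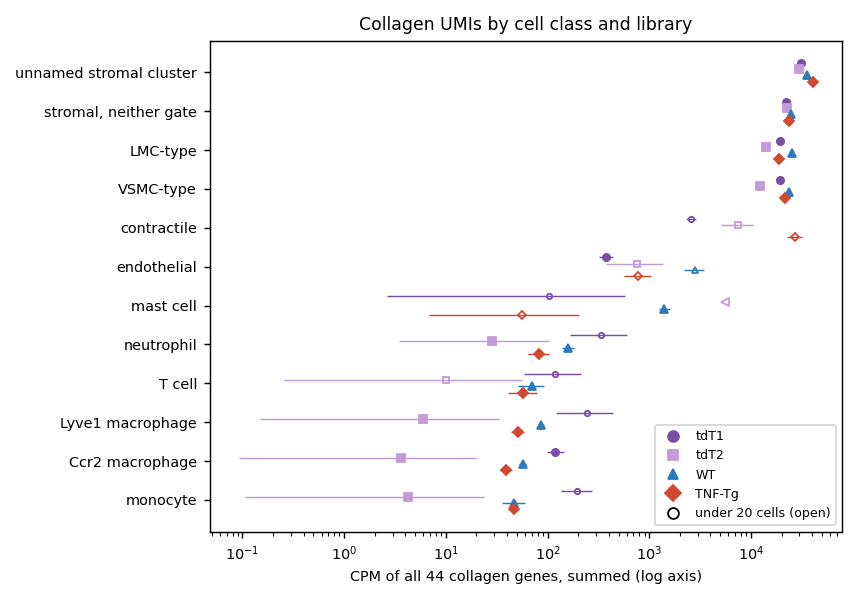
CPM of the 44 collagen genes summed, by cell class and library, on a log axis with exact 95% Poisson intervals for counting error, open symbols for classes under 20 cells and an open triangle at the upper limit where no UMI was found. The unnamed cluster shares cells with the other stromal classes, which lie at or above 12361 CPM, and the macrophages, monocytes and T cells lie under 250 CPM.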

How the data were processed

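The authors deposited filtered matrices of UMI counts per gene and cell, made with Cell Ranger 3.1.0 for tdT1 and 6.0.1 for the other 3 libraries per the file headers, whereas the submitters' processing notes name Cell Ranger 3.1 and 3.1.0, Seurat 4.0.3 and the build mm10. Each library pooled 3 mice. The deposited counts were used as they stand, with all barcodes kept. Differences between libraries in Cell Ranger version and depth were not corrected beyond division by the summed UMIs.

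Cells were gated on summed counts per 10000 UMIs. A stromal cell had a stromal score of at least 20 that lay 3 log2 units above its leukocyte score, and an LMC-type or VSMC-type cell had a difference of at least 1 log2 unit between the scores of 10 genes each. These limits were set after the score distributions were seen. UMIs were summed per class and library. Exact 95% Poisson limits (levels) and exact conditional binomial limits (ratios) were computed with scipy 1.17.1 and cover counting error only. For sums of 0 the text gives the level of 3 UMIs, a fixed value below the exact Poisson limit drawn in the figures.

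LMC-type and VSMC-type sums were compared over the 4 libraries with edgeR 4.0.16 (quasi-likelihood test, R 4.3.3, library as a block, since both gates of a library come from the same mice), with Benjamini-Hochberg adjustment over all genes tested and a threshold of 0.01. P-values weigh the size of the difference between the gates against its variation over these libraries. DESeq2 1.42.0 was an alternative. Tested on data simulated for this comparison over 11519 genes, edgeR recovered 8, 40, 50 and 48 of 50 genes changed by log2 0.585, 1, 2 and 3 with 4 false calls, and DESeq2 recovered 1, 25, 47 and 47 with 2. TNF-Tg and WT had 1 library each and no test, and genes with a mean of at least 5 CPM over both were called past 1.5-fold.

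Alternatives were clusters made with Seurat 5.3.0 on 1980 genes without collagens (21 clusters), a stricter gate, Scrublet (scanpy 1.11.5) doublets left out (4 and 1 in tdT1 and tdT2, 138 and 72 in WT and TNF-Tg, mostly ungated), cells of over 10% mitochondrial UMIs or under 500 genes left out, TMM scaling, means over cells, 2-fold, no low-count filter, no block and each library left out. Scrublet marked under 0.3% of the tdT libraries.

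The collagen genes as a subject and the other gene lists were chosen with earlier results of these data known, although the names alone fixed which genes were members. Values per library are given for fibrillar, type IV and type VI genes with a mean of at least 10 CPM in a gate, for other genes at 20 CPM, for genes past 1.5-fold at 10 CPM and for genes highest outside the stroma at 20 CPM. Col4a6, Col6a5, Col12a1 and Col27a1, which also meet these rules, were named after their values were seen. Assembly genes were named when past 1.5-fold in both gates or among the 5 of lowest p. All 44 genes matched GENCODE vM21 by gene ID.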

Additional observations from a re-analysis of the deposited data

Results flagged for a closer look

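Between WT and TNF-Tg, a few values had opposite signs in the 2 gates. The log2 ratio of TNF-Tg over WT for the summed type VI genes was -0.19 in LMC-type and 0.23 in VSMC-type cells. For Col3a1 it was -0.30 and 0.42, for Col5a3 -0.23 and 0.30, and for Col6a2 -0.37 and 0.098. With 1 library per condition the differences between the gates were not tested, and clusters in place of gates turned the VSMC-type values of type VI genes, Col5a3 and Col6a2 to the LMC-type sign.

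Collagen genes also stood above their level in the stromal gates of the same library in cells that no comparison used. In the 15 tdT1 cells of the contractile gate, whose cell type was not tested further, Col16a1 was at 244 CPM, Col17a1 at 162, Col4a6 at 144 and Col12a1 at 99.3. Col4a5 was at 117 CPM (13 UMIs, counting interval 62.5 to 201), against 110.1 CPM in LMC-type cells of that library and 134 CPM in those of WT. Col4a2 was at 451 CPM (50 UMIs, counting interval 335 to 595), against 377 CPM in VSMC-type cells of tdT1. The intervals of Col4a5 and Col4a2 took in the stromal level of tdT1. In the 241 ungated cells of tdT1, Col17a1 was at 159.9 CPM and Col8a1 at 66.0 CPM. In the 6 endothelial cells of TNF-Tg, Col12a1 was at 269 CPM. The tdTomato reporter, which is no collagen gene, had 118 UMIs in tdT2 and 0 in WT and TNF-Tg.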

How the results depend on the processing

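Of the class comparison, the same 8 collagen genes were called with clusters, the stricter gate, doublets or poor cells left out, DESeq2, no filter, and without either tdT library or TNF-Tg, and 7 of them (not Col4a6) without WT. Leaving out the filter added Col13a1, Col5a3 (edgeR adjusted p = 6.99e-07) and Col6a5 (2.54e-12). Col13a1 had UMIs in the tdT1 sums only, at 0.121 CPM in LMC-type and 8.49 in VSMC-type cells. With the filter, the same counts gave Col5a3 and Col6a5 an edgeR adjusted p of 0.0252 and 0.0399, so these calls depend on the setting. Leaving out tdT2 added Col5a3, and leaving out TNF-Tg added Col6a5 (log2 ratio 3.92, edgeR adjusted p = 0.00174). Without the library block, 2 collagen genes were higher in LMC-type and 3 in VSMC-type cells, with 5 of the 8 shared, and 3 assembly genes were higher in LMC-type and 0 in VSMC-type cells (edgeR, 1 at an unadjusted p under 0.05). Calls over all genes fell as well, from 1829 of 11754 with the block to 321 of 10991 without it. Plod1 and other assembly genes higher in VSMC-type cells numbered 2 with the stricter gate, 3 without the filter and 1 to 3 with a library left out (3 without tdT2, 2 without WT). No paired analysis was possible because WT and TNF-Tg have 1 library each for the comparison of conditions.

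In TNF-Tg over WT, the LMC-type log2 ratios kept their direction under all alternatives. With clusters, the stricter gate, TMM and means over cells, fibrillar genes gave -0.48, -0.56, -0.46 and -0.37, and all collagen genes -0.46, -0.52, -0.44 and -0.35. Basement membrane genes gave -0.89 with clusters and -0.89 with the stricter gate, and type VI genes gave -0.23 with clusters and -0.063 with means over cells. In VSMC-type cells, clusters, the stricter gate and TMM gave -0.25, -0.27 and 0.049 for fibrillar, -0.77, -0.26 and -0.012 for basement membrane, -0.081, 0.070 and 0.41 for type VI and -0.26, -0.25 and 0.070 for all collagen genes. TMM also turned Col4a1 (0.047) and Col6a1 (0.012), clusters turned Col5a3 (-0.26) and Col6a2 (-0.16), and the stricter gate turned Col6a2 (-0.072). The TMM reversals follow from its shift of 0.18, and the cause of the others was not tested.

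Of the counts, 5 collagen genes were lower in LMC-type cells at 2-fold. Without the filter 9 were counted as higher, but this count cannot be read as expression. Sums under 3 UMIs were set to 3 before the ratio, and the totals were 22244212 UMIs in WT and 6799939 in TNF-Tg. A gene with at most 3 UMIs in each was therefore called higher in TNF-Tg whatever its counts. The share of all genes under this setting was not computed. Added after the data were seen, the comparison against each of the other 3 libraries left 0 higher and 2 lower. In VSMC-type cells 5 were lower with clusters, 1 at 2-fold and 5 without the filter, and 1 was higher at 2-fold and 0 against each of the 3 libraries. LMC-type assembly genes numbered 0 higher and 1 lower at 2-fold and 1 lower with means over cells. Their count of 8 higher without the filter has the same fault as that of the collagen genes. VSMC-type assembly genes numbered 2 higher with the stricter gate, 0 higher and 2 lower at 2-fold, and 8 higher and 4 lower with TMM. The shares of all genes with clusters, the stricter gate, TMM or means over cells were not computed. Values under 5 CPM in tdT2 rest on few UMIs, since 3 UMIs of its LMC-type sum stand for 6.05 CPM.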
